A study of Mus musculus with 6 samples.

Results

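The data described here are the ratios between growth hormone (GH) and vehicle in bone 6 hours after a single injection. They come from 3 of the 6 two-colour arrays of the series, numbered replicates 1 to 3, whose protocol gives euthanasia at 6 hours. The other 3 arrays, replicates 4 to 6, were taken at 24 hours and enter here for the spread between arrays and for the test of a difference between the times. All animals were C57BL/6J-Ghrhr<lit> (lit/lit) mice aged 4 weeks. The lit allele disrupts the receptor for GH-releasing hormone, so treated and control animals alike lacked normal GH secretion. Treated mice received GH at 4 mg per kg body weight under the skin and control mice received phosphate-buffered saline (PBS) by the same route. Each array set RNA pooled from 2 GH-treated animals, labelled with Cy5, against RNA pooled from 2 PBS-treated animals, labelled with Cy3. By the design text the PBS animals of each time were pooled in pairs, like the GH animals, and the labels name no common reference.

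A value is the log2 of a ratio, so 1 is a 2-fold difference and 0 is none. The direction GH over PBS is the likely one, from the channels in the labels, and the value table does not state it. Every array had GH in the same dye, so a difference between the dyes that is particular to a probe is part of every ratio below and cannot be told apart from GH. The RNA came from whole bone tissue, and fewer cells of a type and less RNA per cell cannot be told apart in it. The labels do not say whether marrow was removed. Only ratios were used, so levels of bone markers could not be read and the labelled tissue could not be checked by its defining markers.

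GH acts through a cell surface receptor, GHR, that recruits the kinase JAK2. JAK2 phosphorylates transcription factors of the STAT family, STAT5A and STAT5B above all, which bind DNA as pairs and switch on genes such as Igf1, Cish and Socs2. Insulin-like growth factor 1 (IGF1), made in liver and in bone itself, carries much of the effect of GH on growth, while CISH and the SOCS proteins dampen the receptor's signal. In bone, the growth plate and the cells that build and resorb matrix respond to GH directly and through IGF1.

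The STAT pairs prefer the sequence TTCNNNGAA, where N is any base, and the bases around such matches in promoters of genes measured here are shown to give the sequence context. The RefSeq promoter table of build GRCm38.p6 gives 250 bases before and 50 after a gene's start, the first listed promoter of a gene was used, and the motif reads the same on both strands. The windows below hold up to 15 bases on either side of the match, which is in capitals, and are written along the strand of the gene. Socs3 and Bcl6 are the genes among 12 chosen ones (GH, IGF and STAT5 genes, Fos and Tbx3) that had a match before the start. Nsun4, Selenot and Spata1 have the matches closest to the start among genes with a row that rose, and Zfp759 the closest among genes with a row that fell.
Socs3, chr11:117969497-117969535, minus strand: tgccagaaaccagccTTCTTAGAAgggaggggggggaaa
Bcl6, chr16:23988947-23988985, minus strand: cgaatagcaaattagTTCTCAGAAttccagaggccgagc
Nsun4, chr4:116053816-116053854, minus strand: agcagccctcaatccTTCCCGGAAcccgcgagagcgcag
Selenot, chr3:58576566-58576604, plus strand: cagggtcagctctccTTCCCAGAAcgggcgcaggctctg
Spata1, chr3:146499835-146499873, minus strand: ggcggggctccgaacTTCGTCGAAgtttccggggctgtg
Zfp759, chr13:67128133-67128171, plus strand: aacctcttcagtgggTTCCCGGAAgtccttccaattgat
The matches begin 154 bases before the start in Socs3, 118 in Bcl6, 28 in Nsun4, 55 in Selenot, 65 in Spata1 and 80 in Zfp759. The mean log2 ratio at 6 hours was 0.68 in row 3 of Nsun4, 1.13 in row 1 of Selenot, 1.60 in Spata1 and -1.01 in Zfp759, all of which passed the test described below, while rows 1 and 2 of Nsun4 had means of -0.51 and -0.43.

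Over all 27025 genes of the promoter table, 8.47% held the motif in the 300-base window. Of the 7119 tested genes with a promoter, 6.57% did. The share was 4.92% of the 183 genes with a row that rose, or 9 genes, and 5.66% of the 53 genes with a row that fell, or 3 genes. The genes that changed thus held the motif no more often than those tested. A match describes letters only.

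The 3 arrays differed in how far their ratios spread. Replicate 1 held 18302 values with an SD of 0.466, replicate 2 held 19398 with an SD of 0.731 and replicate 3 held 19961 with an SD of 0.693. Across rows, the ratios of replicates 2 and 3 correlated with Pearson's r = 0.769 and shared their sign in 81.1% of 19345 rows. Replicate 1 correlated with replicate 2 at r = 0.269, with 57.7% of signs shared, and with replicate 3 at r = 0.242, with 54.4% of signs shared. Rows are not independent, so these values describe the arrays and are no test. Replicate 1 stood apart, and its value is given beside the others for the genes described in full; a gene given by its mean alone has that mean over all arrays with a value.

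A row was tested where it had been measured on 2 or more arrays at 6 hours and on 2 or more at 24 hours. Of the 19326 such rows, 654 passed an adjusted p of 0.05 at 6 hours, 3.38% of those tested (limma on all 6 arrays with 1 mean per time, Benjamini-Hochberg adjustment over all rows). The rows that were higher with GH numbered 531 (2.75%), and 123 (0.636%) were lower. Of the 654 rows, 283 carried 1 gene symbol, belonging to 279 genes, and 222 of these rose while 61 fell. When the rows of a gene were averaged, 603 of 16678 genes and single unnamed rows passed (3.62%), 486 higher (2.91%) and 117 lower (0.702%). Among the 8803 named genes, 186 passed (2.11%), of which 141 rose (1.6%) and 45 fell (0.511%). All 563 passing rows with 3 values had the same sign on all 3 arrays, which the test of their mean largely fixes; of all 17916 rows with 3 values, 4168 were above 0 on every array and 4304 below.

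The calls need the shared spread. With the 3 arrays at 6 hours fitted alone 0 rows passed in limma, although 5007 had an unadjusted p under 0.05. Leaving out replicate 2, 3 or 4 in turn gave 0 rows in each case. Leaving out replicate 5 gave 649, leaving out replicate 6 gave 111, and leaving out replicate 1 gave 1727, of which 668 were lower. Quantile normalization raised the count to 2232, with 69.2% of them higher, against 81.2% of the 654.

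By the rule for named genes, the 15 largest rises with a value and the same sign on all 3 arrays were led by Apela, which encodes a short secreted peptide that binds the apelin receptor. Its ratios were 1.60, 2.28 and 2.68 in replicates 1, 2 and 3. Apela was 4.55-fold higher (log2 2.19 ± 0.20, moderated SE, n = 3, adjusted p = 0.0282 in limma), and replicate 1 was the lowest of the 3 arrays. Alg11, a mannosyltransferase that builds the lipid-linked sugar used in N-glycosylation, had 1.86, 2.03 and 2.16. It was 4.04-fold higher (log2 2.02 ± 0.11, n = 3, adjusted p = 0.0204 in limma), and its 3 arrays lay closer together than those of Apela.

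Several of the largest rises were in rows of genes that encode signalling proteins. Rows of 1 gene agreed little, and across 2059 genes the ratios of the first 2 rows correlated with r = 0.02. A rise or fall named here is therefore that of a row. A gene with 1 row has no second row to compare. Ksr1, a scaffold of the RAF, MEK and ERK kinases, had 1.80, 1.85 and 1.25 in replicates 1 to 3, with a mean of 1.63 (adjusted p = 0.0282 in limma). Map3k12, a kinase upstream of JNK, had 1.41, 1.88 and 1.84 in its row 1, with a mean of 1.71 (adjusted p = 0.0282). Its row 3 passed too, while its rows 2 and 4 had means of -0.15 and 0.01. Pde1a, a calmodulin-dependent phosphodiesterase that degrades cyclic nucleotides, had 1.30, 1.77 and 1.69. In Ksr1, Map3k12 row 1 and Pde1a all arrays were over 2-fold higher with GH. Ctnnd2, a catenin of the delta class, had 0.70, 2.35 and 2.20, with replicate 1 far below both others, a mean of 1.75 and an adjusted p of 0.0445. The call of Ctnnd2 was lost with robust eBayes, with the prefix of the scan file name as a covariate, and without any 1 of replicates 2 to 6, with adjusted p-values up to 0.257.

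Other large rises encode enzymes and nuclear proteins. Ces1b, a carboxylesterase, had 1.30, 2.12 and 1.73, and Ttll10, an enzyme that adds glycine chains to proteins, had 1.25, 2.21 and 1.74. Setdb2, of the SET family of lysine methyltransferases, had 1.02, 1.93 and 1.99 in its row 2. Elp4, a subunit of Elongator, which modifies transfer RNAs, had 0.95, 1.87 and 2.01 in its row 1. Smg1, the kinase of nonsense-mediated mRNA decay, had 2.11, 2.04 and 1.27 in its row 4, and here replicate 3 was the lowest. Knop1, a nucleolar protein, had 1.59, 1.48 and 1.49 in its row 2. Among these 6 rows Knop1 varied least, with an SD of 0.06 over the arrays. Megf6, Klhl34 and Wdr70 row 1 completed the list with means of 1.68, 1.62 and 1.52. A gene given with a row number has further rows on the array. Apart from Map3k12, no further tested row of the genes among these rises passed.

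The largest fall among the named rows that passed, with a value and the same sign on all 3 arrays, was in row 2 of Cd160, a receptor of natural killer and T cells. Its ratios were -0.81, -2.47 and -2.06 in replicates 1 to 3, a 3.44-fold lower value (log2 -1.78 ± 0.30, n = 3, adjusted p = 0.0404 in limma). Scin, which encodes the actin-severing protein scinderin, had -1.74, -1.56 and -1.89 and was 3.31-fold lower (log2 -1.73 ± 0.16, n = 3, adjusted p = 0.0282 in limma). Replicate 1 was as low as the others in Scin and much nearer 0 in Cd160.

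Other falls follow. Syncrip, an RNA-binding protein of the hnRNP family, had -1.64, -1.29 and -1.60 in its row 1. Ankrd11, a chromatin regulator, had -1, -2.25 and -1.89 in its row 2, and Esco1, which acetylates cohesin, had -0.89, -1.25 and -1.79. Sp3, a zinc finger transcription factor, had -0.58, -1.79 and -2 in its row 1, with replicate 1 the smallest. Cfap44, a protein of cilia and flagella, had -1.47, -1.36 and -1.74, and Zswim7, a homologous recombination factor, had -1.32, -1.43 and -1.60. The arrays differed little among themselves in these last 2 genes.

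The remaining falls of the rule included Slc27a2, which activates very long-chain fatty acids, at -1.15, -1.79 and -1.52. Srpk2, a kinase of splicing factors, had -1.15, -2.40 and -0.97 in its row 2. Caskin2, Ralgapa1 row 1, Pacs2 row 2, Dnttip1 row 2 and Tdrd9 row 1 had means between -1.63 and -1.26. All of these rows passed. Where a fall is given with a row number, no further tested row of the gene passed, apart from Cd160.

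**Figure D1:**
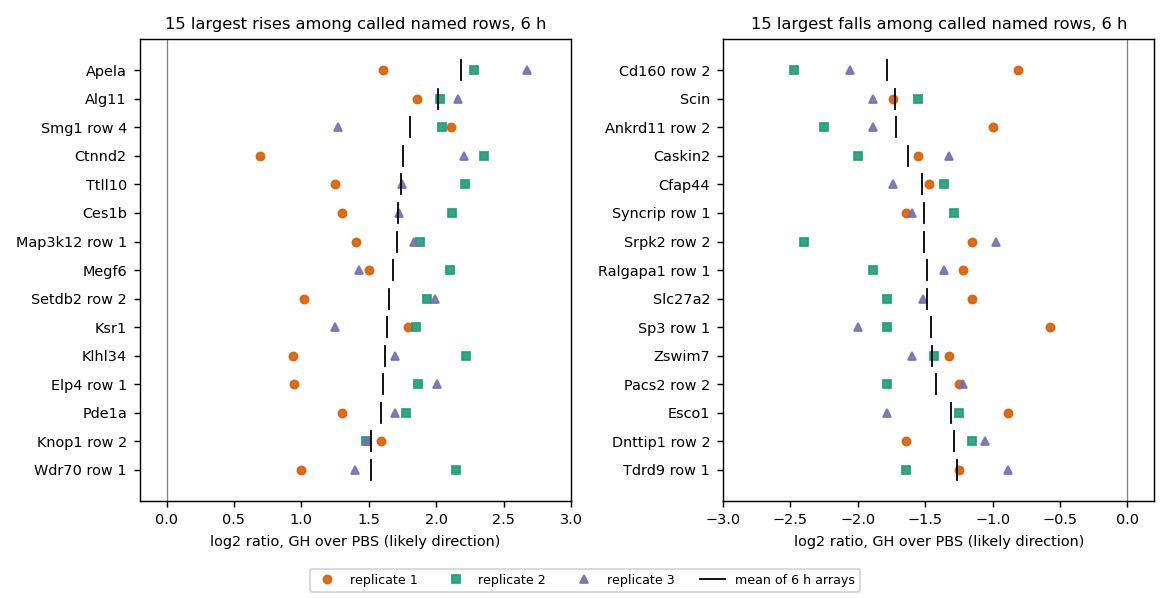
The 15 largest rises (left) and falls (right) among named rows that passed at 6 hours, as log2 ratio of GH over PBS on the x axis, with 1 symbol per replicate and a bar at the mean. Replicate 1 is the symbol nearest 0 in rows such as Ctnnd2, Cd160 row 2 and Sp3 row 1, while in Alg11, Scin and Zswim7 the 3 arrays lie together.

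Of the GH and IGF genes, Igf1 was represented by 3 rows that did not move together. Row 2 had 1.50, 1.64 and 0.99 in replicates 1 to 3. It rose 2.60-fold (log2 1.38 ± 0.17, n = 3, adjusted p = 0.0303 in limma), with every array near or above 2-fold. Row 1 had 0.08, -0.15 and -1, with a mean of -0.36 and an adjusted p of 0.356. Row 3 had 0.73, 0.23 and -0.47, with a mean of 0.16 and an adjusted p of 0.791. In both of these rows replicate 1 was the highest array and replicate 3 the lowest. Averaged per gene, Igf1 did not pass.

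The binding proteins of IGF were nearer 0. Igfbp3, the main carrier of IGF1 in blood, had 0.29, 0.61 and 0.45 (mean 0.45 ± 0.13, n = 3, adjusted p = 0.0964 in limma). Igfbp5, which is bound in bone matrix, had 0.50, 0.46 and 0.14, with an adjusted p of 0.152. All 3 arrays were above 0 in both genes, and neither passed.

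Among the feedback inhibitors, Cish had 0.33, 0.59 and 0.57 (mean 0.49 ± 0.16, n = 3, adjusted p = 0.118 in limma), above 0 on every array but short of the threshold. Socs3 had -0.12, -0.30 and 0.06. Socs2 had no tested row under its own symbol. Bcl6, a repressor that STAT5 represses in other tissues, had -0.15, 0.10 and -0.03. Neither Socs3 nor Bcl6 lay to 1 side of 0 on all arrays.

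The receptor Ghr had 0.00, -0.20 and -0.56, and Stat5a had -0.17, -0.67 and -0.43 (mean -0.42, adjusted p = 0.136 in limma). Stat5b had -0.14, 0.11 and -0.10. Fos, an early response transcription factor, had 0.45, 1.29 and 0.45 in row 2 (adjusted p = 0.0896) and -0.30, 0.51 and 0.37 in row 1. No row of these 4 genes passed.

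Tbx3, a T-box transcription factor of limb and skeletal development, did. Its ratios were 0.93, 1.47 and 0.94, a 2.16-fold higher value (log2 1.11 ± 0.19, n = 3, adjusted p = 0.0397 in limma). Replicates 1 and 3 had nearly the same ratio and replicate 2 a higher one. The calls of Igf1 row 2 and Tbx3 were lost when replicate 2, 3, 4 or 6 was left out, with adjusted p-values up to 0.208 and 0.234.

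**Figure D2:**
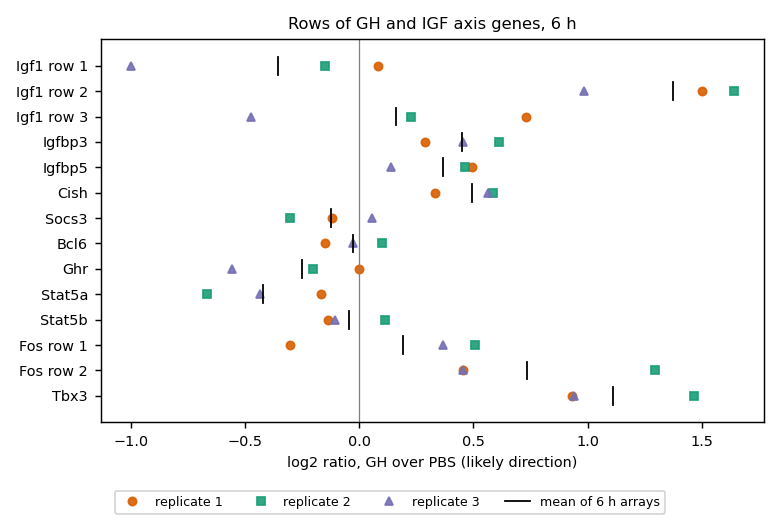
Every tested row of 11 chosen genes (GH, IGF and STAT5 genes, Fos and Tbx3), as log2 ratio of GH over PBS on the x axis. Each row has 1 symbol per replicate and a bar at the mean. Igf1 row 2 and Tbx3 lie apart from 0 on all 3 arrays, and the other 2 rows of Igf1 straddle it.

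Gene lists were described by counts of genes that passed, with 1.6% higher and 0.511% lower among all 8803 named genes. A value per gene is the average of its rows with a value on that array, and rows of a gene can disagree. In 28 lists, 9 genes rose and 0 fell. None of the 9 passed with 6 hours fitted alone or without replicate 2, 3 or 4, and 7 lost their call without replicate 6. The lists were chosen with earlier results of these data known, and some hold genes of the largest rises, such as Apela and Alg11. Their 9 calls therefore cannot be compared with the share over all named genes. Over all named genes 47.3% were above 0 and the median was -0.02.

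In Wnt signalling, 2 of 14 measured ligands, antagonists and receptors rose and 0 fell. Wnt5a, a ligand that acts mainly outside the beta-catenin route, had 0.61, 1.25 and 0.84 in replicates 1 to 3 (mean 0.90, adjusted p = 0.0406 per gene in limma). Dkk2, a secreted Wnt antagonist, had 1.48, 2.27 and 0.95 (mean 1.57, adjusted p = 0.0498). In the fit per row the adjusted p of Dkk2 was 0.0510, so its row did not pass. Of the 14 genes 11 had a mean above 0. Other antagonists lay on either side of 0 without passing. Frzb had -0.22, -0.60 and -0.81, and Nkd1, an inhibitor inside the cell, had -0.17, -1.25 and -0.89. Wif1 had 0.56, 0.32 and 0.36, and Nkd2 had 0.15, 0.82 and 0.49.

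In the T-box list 1 of 7 measured genes, Tbx3, rose. Eomes had 1.16 and 0.82 in replicates 2 and 3 and no value in replicate 1 (adjusted p = 0.0585), and Tbx19 had 1.15 and 0.63 in the same arrays. Tbx15 had 0.42, 0.44 and 0.56. The median of the list was 0.83, and Eomes, Tbx19 and Tbx20 entered it without a value in replicate 1. Over all tested rows without one the median was 0.60.

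In BMP and TGF-beta signalling 1 of 24 genes rose and 0 fell. Acvr1, a BMP type I receptor, had 0.77, 1.70 and 0.99 (mean 1.15, adjusted p = 0.0475 per gene in limma). Smad9, which carries the signal of BMP receptors to the nucleus, had -2.32, -1.03 and -3.47, the lowest mean of any named gene at -2.28, but its spread left an adjusted p of 0.0540. Bmp2 had -0.41, -0.45 and -0.41, and Acvr2a, an activin receptor, had a mean of -1.06 from replicates 2 and 3. Neither passed.

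In the bone matrix list 0 of 29 genes passed when rows were averaged, and 18 were above 0. Plod1, a lysyl hydroxylase of collagen, had 0.36, 1.04 and 1.21 (adjusted p = 0.0663), and its row 2 alone passed with a mean of 1.10 and an adjusted p of 0.0448. Col5a2, a fibrillar collagen chain, had a mean of 0.50, while Adamts5, an aggrecan-cleaving protease, had -0.996 and Timp3, an inhibitor of such proteases, had -0.42. The chains of type I collagen were near 0, with means of -0.03 for Col1a1 and 0.04 for Col1a2.

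Among osteoblast and osteocyte markers 0 of 7 genes passed. Msx2, a homeobox factor, had 0.41 and 0.60 in replicates 2 and 3 and no value in replicate 1. Dlx3 had a mean of -0.15, averaged over rows with means of 0.19 and -0.48. Dlx5 had 0.15, -0.94 and -0.10, and Cdh11, a cadherin of osteoblasts, had -0.01, 1.68 and -0.32. The mean of each of these last 2 rested on replicate 2.

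Among osteoclast markers 0 of 8 passed. Calcr, the calcitonin receptor, had 0.19, 1.09 and 1.05, and Acp5, the acid phosphatase of resorbing cells, had 0.10, 0.48 and 0.53. Car2, a carbonic anhydrase, had 0.07, -0.56 and -1.36, and Traf6 had -0.41 and -0.69 in replicates 1 and 3. In Calcr, Acp5 and Car2 replicate 1 was the array nearest 0.

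Among signals that regulate osteoclasts 0 of 8 genes passed. Sema3a, a semaphorin, had -1.32, -0.86 and -0.56, and the interleukins Il1a and Il1b had means of 0.52 and 0.68. Csf1, a growth factor of osteoclast precursors, passed in its row 1, with 0.75, 1.14 and 1.31 (mean 1.07, adjusted p = 0.0332 in limma). Its row 2 had 0.79, -1.15 and -0.79, and the average of both rows did not pass.

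Only 3 chondrocyte markers were measured and 0 passed. Col9a3, a collagen of cartilage, had 0.99, 1.21 and 0.42 (adjusted p = 0.0542). Hapln1, which links aggrecan to hyaluronan, and Col2a1, the main cartilage collagen, had means of -0.95 and -0.78.

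In fatty acid oxidation 1 of 15 genes rose, Ehhadh, an enzyme of peroxisomal beta-oxidation, with 0.73, 0.82 and 1.06 (mean 0.87, adjusted p = 0.0381 per gene in limma). Acadm, a mitochondrial acyl-CoA dehydrogenase, had 0.50, 0.60 and 2.12, and Hadh and Acads had means of 0.55 and 0.32. In N-glycan assembly 1 of 17 rose, Alg11. Stt3a, the catalytic subunit of an oligosaccharyltransferase, had 0.58, 0.91 and 1.30 (adjusted p = 0.0655), Rpn1 a mean of 0.39 and Alg3 a mean of -1.10. In the apelin system Apela rose and its receptor Aplnr had a mean of -0.15, with 2 genes measured.

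In the lists of GH receptor signalling (12 genes measured), cytokine feedback inhibitors (9), the IGF system (9), PI3-kinase subunits (9), immediate-early genes (15), endoplasmic reticulum chaperones (15), circadian clock genes (11) and cell cycle and DNA replication (33), 0 genes passed. Map2k1, the ERK kinase, had 0.11, -0.90 and -0.82 as an average of 2 rows. Its row 1 had no value in replicate 1 and had -1.36 and -1.29 in replicates 2 and 3. Row 2 of Map2k1 had 0.11, -0.43 and -0.36. Shc1, a receptor adaptor, had a mean of -0.23. Pias2 had a mean of 0.29, Socs6 of -0.32 and Socs7 of -0.39. The tested rows of each disagreed, with means of 0.98, -0.18 and 0.10 in Pias2, 0.11 and -0.62 in Socs6 and -0.88 and 0.09 in Socs7. Igf2 had 0.11, 0.47 and 0.67 as an average of rows with means of -0.05 and 0.89, and Igfbp2 had -0.54, -0.27 and -0.45. The lists of signalling genes thus lay on both sides of 0.

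The lipid kinase subunits Pik3c3, with -0.23, -3.18 and -1.43, Pik3r3, with -0.36, -1.74 and -1.15, and Pik3cb, with -0.06, -1.09 and -1.60, were lower in replicates 2 and 3 than in replicate 1. Pik3c2g had a mean of 0.36. The early response genes Jun, Klf6 and Egr1 had means of -0.48, -0.38 and 0.36. The collagen chaperone Serpinh1 had 0.49, 0.96 and 0.75 (adjusted p = 0.0655), and Calr, P4hb and Pdia3 had means of 0.34, 0.28 and -0.23.

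Of the clock genes, Arntl had 0.31, -1.79 and -1.29, Rora had a mean of -0.67, Cry1 of 0.48 and Npas2 of 0.21. In the cell cycle list 9 of 33 genes were above 0 and 24 below. Cdc7, a kinase that starts replication, had -0.86, -1.32 and -1.69, Cdc25b and Ccnd3 had means of -0.54 and -0.44, and Cdc25c had 0.36. None of these passed.

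Markers of skeletal muscle and of the neutrophil lineage moved with the arrays. All 10 measured skeletal muscle markers had a mean above 0, and their medians were 0.10, 0.67 and 1.15 in replicates 1, 2 and 3. Acta1, the actin of skeletal muscle, had 0.25, 0.59 and 1.80, Pygm, the muscle glycogen phosphorylase, 0.32, 0.96 and 1.01, Mb 0.56, 0.98 and 0.75, and Casq1 0.01, 0.98 and 1.42. None passed. All 7 measured neutrophil lineage markers had a mean below 0, with medians of 0.11, -0.49 and -1.32 in the same order. Lcn2 had 0.11, -1.29 and -1.60, Cd177 0.15, -0.86 and -1.43, Ltf -0.01, -0.49 and -1.32 and Mpo, the myeloperoxidase, -0.44, -0.44 and -0.26. The values of Mpo average 3 rows that disagreed. Row 1 had -1.69, -0.94 and 0.08, row 2 a mean of 0.05, and row 3 had 0.52, -0.32 and -1.22. None passed. These 2 lists were nearly flat in replicate 1 and far from 0 in replicate 3, and their part in the ratios of other genes was not tested. In replicates 1 to 3 the medians also fell in the chondrocyte list (-0.30, -0.79 and -1.25) and the cell cycle list (0.08, -0.06 and -0.42). Medians of endothelial markers (0.20, 0.04 and 0.19) and adipocyte markers (0.29, 0.13 and 0.33) followed no such order.

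In the erythroid list 1 of 7 genes rose, Hbb-b2, an adult beta globin, with 1.41, 0.73 and 0.98 (mean 1.04, adjusted p = 0.0447 per gene in limma). Globin genes are near copies of each other, so the row may also read its neighbours. Gata1, Tfrc and Epor had means of -0.25, 0.21 and -0.20. In the B lineage list 1 of 7 rose, Blnk, a linker protein downstream of the B cell receptor, with 0.83, 0.89 and 1.11 (mean 0.94, adjusted p = 0.0381), while Ms4a1, Pax5 and Rag1 had means of 0.27, -0.15 and -0.42. The erythroid and B lineage lists as wholes had medians of -0.10 and -0.05.

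For monocytes and macrophages 0 of 4 genes passed, with means of -0.37 for Fcgr1, -0.31 for Ccr2, 0.19 for Vcam1 and -0.25 for Lyz2. For endothelium 0 of 7 passed, with Flt1 at 0.45, Kdr at -0.34, Eng at 0.27 and Cdh5 at 0.17. For adipocytes 0 of 4 passed, with Slc2a4 at 0.45, Cebpa at 0.89, Fabp4 at -0.15 and Pparg at -0.12. T and NK cells were represented by Cd3e at 0.29 and Cd2 at -0.06, and megakaryocytes by Ppbp alone, with 0.75, 0.37 and -1.15. None of these genes passed either.

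**Figure D3:**
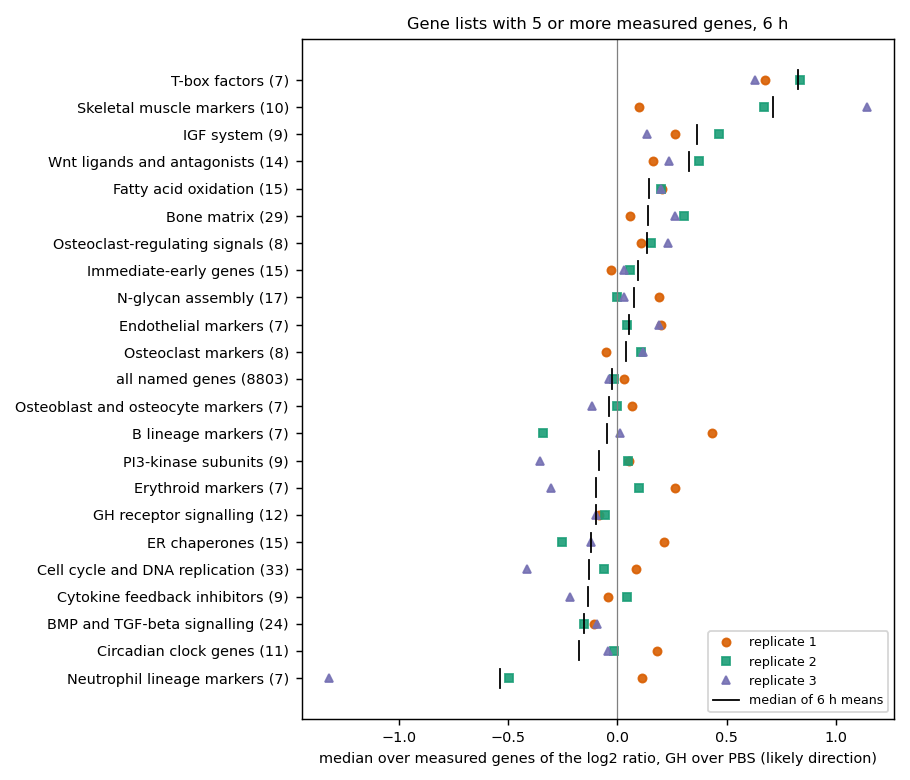
Median log2 ratio of GH over PBS over the measured genes of each list with at least 5, by replicate (symbols) and over the means at 6 hours (bar), with the number measured in brackets. Muscle markers lie at 0.10, 0.67 and 1.15 and neutrophil markers at 0.11, -0.49 and -1.32 in replicates 1 to 3, while all named genes lie near 0.

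Replicate 1 was then read in rows that it had not helped to choose. The fit without it called 1727 rows, and 1495 of them had a value in replicate 1. Replicate 1 had the same sign as the mean of replicates 2 and 3 in 75.2% of these 1495 rows, against 56.4% of all 17853 rows. The 2 directions differed. Of 848 rows called higher, 92.0% were above 0 in replicate 1, against 55.0% of all rows above 0 in replicates 2 and 3, and the median was 0.55 in replicate 1 and 1.21 in the mean of the others. Of 647 rows called lower, 53.2% were below 0 in replicate 1, against 57.8% of all rows below 0 in replicates 2 and 3, and turned to the sign of the others the medians were 0.04 and 1.22. Rises called from the other arrays were thus seen at reduced size in replicate 1, and falls were not seen there more often than in rows at large.

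Size alone gave nearly the same shares. Of the 949 rows over 2-fold higher in the mean of replicates 2 and 3, called or not, 91.4% were above 0 in replicate 1, and of the 1213 rows over 2-fold lower, 51.9% were below 0. Scaling each array to the same spread left 88.6% for rows called higher and 50.7% for rows called lower, and quantile normalization left 88.0% and 54.1%. The difference between directions was a description and was not tested.

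**Figure D4:**
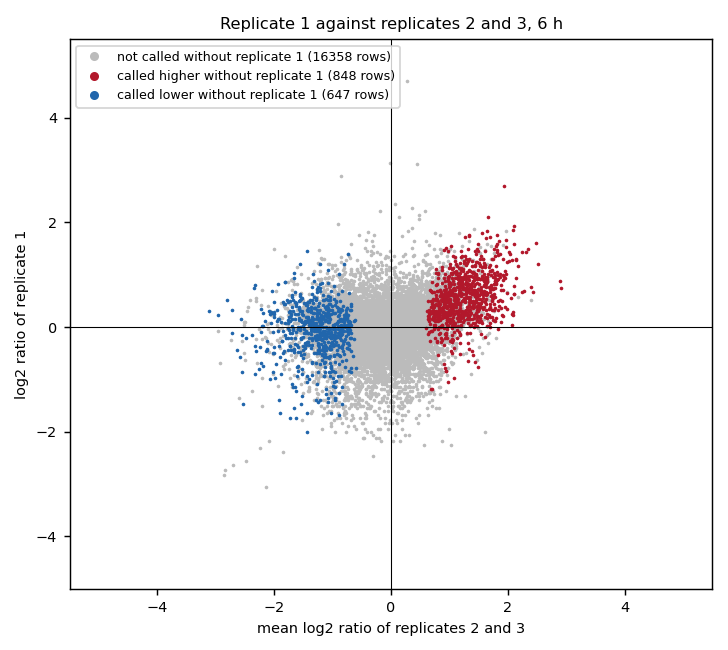
Each point is a row, with the mean log2 ratio of replicates 2 and 3 on the x axis and the log2 ratio of replicate 1 on the y axis, coloured by the call in the fit without replicate 1. The 848 rows called higher lie mostly above the horizontal line, 92.0% of them, and the 647 called lower lie about evenly on both sides of it, 53.2% below.

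In the fit with all arrays replicate 1 was the smallest of the 3 in 347 of the 563 passing rows with 3 values. It was also the smallest in 8819 of all 17853 tested rows with 3 values. The median size in the passing rows, with signs turned to that of the mean, was 0.93 in replicate 1, 1.29 in replicate 2 and 1.11 in replicate 3, against 0.24, 0.32 and 0.38 over all tested rows. Replicates 2 and 3 shared a sign in 14399 rows, and replicate 1 had the other sign in 5738 of them, none of which passed. In 9 of these rows all 3 arrays were beyond 2-fold.

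The strongest opposite values of replicate 1 in named rows were in Heatr6, with -2.25, 0.93 and 1.12 in replicates 1 to 3, and in row 1 of Phip, which binds insulin receptor substrates, with -2.18, 0.10 and 0.20. Aspg, an asparaginase, had -2.18, 1.26 and 0.50. Usp20, a deubiquitinase, had -2.06, 0.31 and 0.31, and Slc25a44, a mitochondrial carrier of branched-chain amino acids, had -1.94, 0.11 and 0.28. The mean over the 3 arrays describes none of them in these 5 rows.

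Rows without a value in replicate 1 numbered 1271 among those tested, and 90 of them passed (7.08%), 84 higher and 6 lower. Their median ratio in the remaining arrays was 0.60. Rows without a single gene symbol passed more often than named ones, at 4.71% of 7875 against 2.47% of 11451. Neither difference was tested, and rows are not independent.

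For 2059 genes with at least 2 tested rows, the ratios of the first 2 rows correlated across genes with r = 0.02, and of 1604 genes with exactly 2 tested rows 50.1% had both on 1 side of 0. In 128 of the 2059 genes a row passed, and in 124 of these exactly 1 row did. In 78 of the 124 at least 1 other row had the other sign, and over all 2059 genes 44.3% had every row on 1 side of 0. The array gives no means here to say which transcript or strand each row reads.

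Only Map3k12 had more than 1 row past the threshold in 1 direction. Row 3 had 1.90 and 2.15 in replicates 2 and 3 and no value in replicate 1 (mean 2.02, adjusted p = 0.0282 in limma), and row 1 is given above. Rows 2 and 4 had means of -0.15 and 0.01. So 2 rows of Map3k12 rose and 2 lay near 0.

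In 3 genes rows passed in opposite directions. Cd160 row 1 had 1.48 and 1.23 in replicates 2 and 3, with no value in replicate 1 (mean 1.35, adjusted p = 0.0476 in limma), against the mean of -1.78 in row 2. Pcm1, a protein of centriolar satellites, had -1.64 and -1.36 in row 1 in replicates 2 and 3, and 0.53, 1.25 and 1.00 in row 2. Wwc2, of a family that acts in Hippo signalling, had -1.40, -0.97 and -0.94 in row 2 and 1.18, 1.63 and 0.94 in row 3. Its rows 1 and 4 had means of 0.51 and 0.32. For these genes the average per gene describes neither row.

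**Figure D5:**
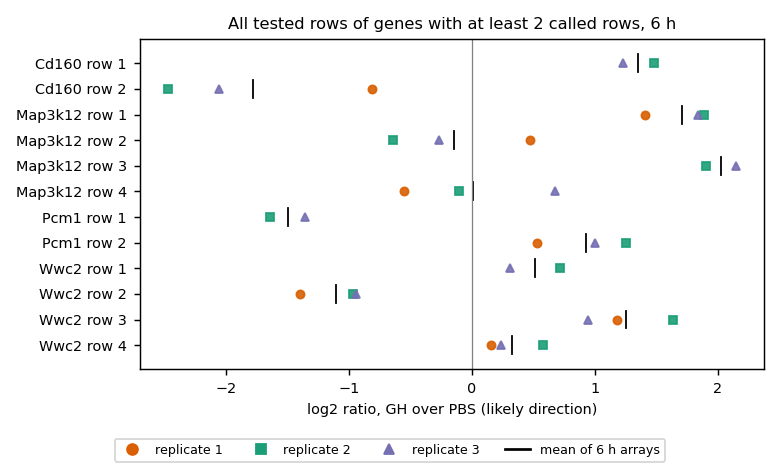
All tested rows of the 4 genes with at least 2 rows past the threshold, as log2 ratio of GH over PBS on the x axis, with 1 symbol per replicate and a bar at the mean. The rows of Cd160, Pcm1 and Wwc2 lie on both sides of 0, and rows 1 and 3 of Map3k12 lie near 2.

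The ratios at 6 hours were set against those at 24 hours by a test of the difference. In limma 0 rows differed, with 585 of 19326 at an unadjusted p under 0.05, and 0 rows differed in any alternative fit. At 24 hours 4116 rows passed (21.3%), and 608 of the 654 rows that passed at 6 hours passed there too in the same direction. Both sets of calls use the same estimate of the spread for each row. Of the 46 other rows, 1 had the other sign at 24 hours, row 1 of Cops4, a subunit of the COP9 signalosome. Its ratios were -0.56, -0.54 and -0.76 in replicates 1 to 3, with a mean of -0.62 (adjusted p = 0.0480 in limma) against 0.29 at 24 hours, and the adjusted p of the difference was 0.980. For some of the rises named above, the means at 6 and 24 hours were close. Apela had 2.19 and 2.17, Alg11 2.02 and 2.34, Tbx3 1.11 and 1.31 and Igf1 row 2 1.38 and 1.19. Other named rows lay further apart, such as Cd160 row 2 with -1.78 and -0.97 and Ralgapa1 row 1 with -1.49 and -2.46. A difference that does not pass does not show that the ratios at the times are equal.

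Among rows with values on all 3 arrays at 6 hours, 112 of 17916 were over 2-fold higher on every array and 50 over 2-fold lower. Of the rows tested, 108 of 112 such higher rows passed and 26 of 48 such lower rows did. With 3 arrays at 6 hours, their number limits the precision of every value above.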

How the data were processed

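Bone RNA was amplified from an oligo(dT) primer and labelled, per the labels' protocols. As the authors deposited them, values are log2 ratios for 21446 rows, 1257 of them empty on all arrays. Turned back to linear ratios, 100% of values had 2 decimals (within 0.01 of a hundredth, plus 0.01 of a hundredth per unit of ratio). No source used here names the normalization, the extraction software or the array's build, and signal over background is unknown. The medians of replicates 1 to 3 were -0.0145, 0.0144 and 0.0144, so the arrays were centred near 0 with unequal scale. GEO's platform annotation gave 11813 rows 1 symbol, 559 several and 9074 none. Gene identifiers of 11782 were found in the GRCm38.p6 table, which changed 0 symbols.

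Tests used limma 3.58.1 in R 4.3.3 (lmFit and eBayes, 1 mean per time, all 6 arrays, rows measured on 2 or more arrays at both times, two-sided, Benjamini-Hochberg over all rows or genes, threshold 0.05). The prior had 2.46 degrees of freedom and an SD of 0.288. Errors are moderated standard errors. Alternatives changed the centring, scale, normalization, missing-value rule, exact zeros, eBayes, array weights, scan file prefix (which differs only among 24-hour arrays) and single replicates. The p-values measure the spread between arrays within each time, and each array is a ratio of pools of 2 animals. Differences between animals and differences in labelling and array are both part of that spread.

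The members, lists and tests were chosen with earlier results of these data known. Named rows are the 15 largest rises and falls among called rows with 1 symbol, 3 values and 1 sign (clone names and predicted genes skipped). They also include all rows of 12 chosen genes (GH, IGF and STAT5 genes, Fos and Tbx3). Up to 4 members with the smallest p of each list, genes with at least 2 called rows, and the 5 rows where replicate 1 most opposes the others complete them. The promoter motif search, the sets of rows split by direction and by size for replicate 1, the splits by symbol and by missing value, and the naming of Cops4, Csf1 row 1, Plod1 row 2, Col1a1, Col1a2, Tbx20, Wif1 and Nkd2 were added after values had been seen. The script was tested on simulated ratios. No list was tested.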

Additional observations from a re-analysis of the deposited data

How the results depend on the processing

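Counts of rows called at 6 hours moved from 654 to 0 with 6 hours fitted alone, to 2016 after scaling to 1 median absolute deviation (71.6% higher), to 2232 after quantile normalization (69.2% higher) and to 7660 with array weights (53.1% higher), which gave replicate 1 a weight of 0.397 and replicate 2 of 3.66. Leaving out single replicates gave 0 to 1727 (replicates 2, 3 and 4 each 0, replicate 6 111, replicate 5 649, replicate 1 1727). The cause was not tested. Counts of genes called at 6 hours, 603 in all, moved to 0, 1782, 1964 and 6241 under the same settings and lay between 0 and 1501 without single replicates. Of the 654 rows, 653 were also called after quantile normalization and 563 without replicate 1. Rows differing between 24 and 6 hours stayed at 0 under all alternatives. The share of signs that replicate 1 shared in rows called from replicates 2 and 3, 75.2%, became 70.0% after scaling and 71.8% after quantile normalization.

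Of 38 named rows that passed, all kept their direction in every setting that tested them, and 0 passed with 6 hours fitted alone or without replicate 2, 3 or 4, while 14 of 33 tested passed without replicate 6. With the prefix of the scan file name as a covariate, 34 of the 38 passed (not Ctnnd2, Srpk2 row 2, Sp3 row 1 or Pcm1 row 2), and 34 passed without replicate 5 with the same 4 lost. Both settings left the means at 6 hours unchanged and gave nearly equal standard errors, such as 0.1678 and 0.1674 in Scin. They are close to the same check. With robust eBayes 32 passed, with Dnttip1 row 2 and Cd160 row 1 lost beside those 4. Without replicate 1, 35 passed (not Pacs2 row 2, Dnttip1 row 2 or Tdrd9 row 1). Per gene, Dkk2 lost its call in the settings just named and when the rule on missing values changed, Acvr1 with robust eBayes, and Hbb-b2 without replicate 1. Without replicate 6, 7 of the list genes that had passed lost their call.

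Signs reversed only in rows and genes that did not pass. With array weights, Bcl6 became 0.053, Stat5b 0.048, Heatr6 0.72, Aspg 0.83, Usp20 0.12, Ms4a1 -0.035, Cd2 0.0061 and Ppbp 0.055. After scaling and after quantile normalization, Map3k12 row 4 became -0.31 and -0.13 and Ppbp 0.43 and 0.12. Without single replicates, values ran from -0.12 to 0.48 in Igf1 row 3, -0.091 to 0.034 in Bcl6, -0.12 to 0.0032 in Stat5b, -0.46 to 0.10 in Map3k12 row 2, -0.33 to 0.29 in Map3k12 row 4, -0.66 to 1.03 in Heatr6, -1.04 to 0.15 in Phip row 1, -0.84 to 0.88 in Aspg, -0.87 to 0.31 in Usp20, -0.92 to 0.19 in Slc25a44, -0.52 to 0.023 in Dlx5, -0.17 to 0.83 in Cdh11, -0.015 to 0.31 in Vcam1, -0.66 to 0.12 in Lyz2, -0.12 to 0.0068 in Cd2, -0.39 to 0.56 in Ppbp and -0.37 to 0.12 in Fabp4. No paired analysis was possible because the groups share no replicate number.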

Other observations

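A further group of rows that passed at 6 hours was picked after its values had been seen, so it is a description with no test and no explanation. Several of these genes are known from embryo, placenta or epithelium. They were picked from the 222 named rows that rose. Other genes of these tissues were not counted, so nothing can be said of such genes as a set. Zfp42, a marker of pluripotent cells, had 1.08, 1.36 and 1.35 in replicates 1 to 3, with a mean of 1.26. Sox11, an embryonic transcription factor, had 1.30, 1.84 and 1.30 in its row 2, while rows 1 and 3 had means of -0.44 and 0.98. Hand1, a factor of heart and placenta, had 0.93, 1.56 and 0.97 in its row 2 and a mean of -0.01 in its row 1. Igf2bp1, an RNA-binding protein of fetal tissue, had 0.92, 1.03 and 1.28 in its row 1. Epcam and Krt14, epithelial genes, had means of 0.80 and 0.87. Zfp42, Sox11 row 2, Hand1 row 2, Igf2bp1 row 1, Epcam and Krt14 were above 0 on all 3 arrays and passed in limma; Sox11 rows 1 and 3 and Hand1 row 1 did not pass.

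A pair of long noncoding RNAs each had 1 row that passed and other rows near 0. Meg3 had 8 tested rows, of which row 7 passed, with 1.01, 1.20 and 0.90 in replicates 1 to 3, while rows 1 and 8 had means of 0.04 and -0.01. Xist had 5 tested rows, of which row 3 passed, with 0.88, 1.03 and 0.83, while row 4 had a mean of 0.02. The values of the remaining tested rows of both genes are not given, so nothing is said of their rows as a whole. The sex of the animals is not given in the labels. The Y-linked genes Eif2s3y and Kdm5d had means of 0.34 and 0.12 and did not pass. Whether the pools differed in sex was not tested.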
